A study of Homo sapiens with 3 samples.

Results

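The region described here is the imprinted gene domain of chromosome band 11p15 with its flanks, taken as chr11:1000000-3200000 of the human genome build hg19. Its members are all peaks of a Spindlin1 list and of a C11orf84 list whose summit, the highest point of the peak, lay in that interval. There were 811 Spindlin1 peaks among the 153378 of that list on chromosomes 1 to 22 and X, and 1098 C11orf84 peaks among 177557. The position alone chose them, and no measured value was used. The series mapped where Spindlin1 and C11orf84 lie along the genome by chromatin immunoprecipitation followed by sequencing (ChIP-seq), which sequences the DNA fragments an antibody recovers from fixed chromatin. All 3 samples came from U2OS, a human osteosarcoma cell line, grown without treatment and fixed with formaldehyde. They were 1 library for each of the antibodies, Spindlin1 and C11orf84, and 1 Input library made without antibody, of which no file was analysed here. Neither antibody has a second library, so differences carry no replicate error and no p-value.

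Imprinted genes are transcribed mainly from the copy inherited from one parent, and 11p15 holds neighbouring clusters of them. H19, a long noncoding RNA gene, and IGF2, which encodes an insulin-like growth factor, share one imprinting control element, whereas KCNQ1, a potassium channel gene, and CDKN1C, an inhibitor of cyclin-dependent kinases, belong to a cluster controlled from within KCNQ1, where the antisense RNA KCNQ1OT1 starts. Spindlin1 recognises histone H3 methylated on its tail, and C11orf84 is one of its binding partners. A peak list does not tell the parental copies apart, so nothing below is about one allele.

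The rule that defined the region also gave the gene intervals, and 10 consecutive pieces were made from it. From the tip of the short arm inwards they were a flank of 900 kb, the 116 kb from there to H19, H19, the stretch from H19 to IGF2, IGF2, the stretch from IGF2 to KCNQ1, KCNQ1, the stretch from KCNQ1 to CDKN1C, CDKN1C, and the 293 kb past CDKN1C. The 891 kb from the start of H19 to the end of CDKN1C are called the span. In the RefSeq gene order, read for names only, the genes between MUC6 and H19 include the mucin genes MUC2, MUC5AC and MUC5B, members of the KRTAP5 keratin-associated family, and CTSD, which encodes a lysosomal protease. Which of these lie in the flank by hg19 position was not read. Between IGF2 and KCNQ1 come 8 named protein-coding genes, among them INS (insulin), TH (tyrosine hydroxylase), ASCL2 (a transcription factor), TSPAN32 and CD81. CDKN1C is followed by SLC67A1, also known as SLC22A18, and then by PHLDA2, NAP1L4, CARS1 and OSBPL5.

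Both proteins had far more peaks here than in the genome at large. Spindlin1 had 369 peaks per Mb (95% interval 344 to 395), against 52.1 over its whole list and 59.5 on the rest of chromosome 11. C11orf84 had 499 per Mb (470 to 530), against 60.4 and 69.8. The density was thus 7.07 times that of the whole list for Spindlin1 and 8.27 times for C11orf84, and the region held 0.529% and 0.618% of the peaks in 0.0748% of the length. Peaks covered 10.7% of its bases for Spindlin1 and 17.0% for C11orf84. The density did not stop at the tip side, where the first 1 Mb of the chromosome had 252 and 368 peaks per Mb. It did fall on the other side, with 77 Spindlin1 and 85 C11orf84 peaks in the 1 Mb past the region. The intervals here and below cover counting error only and treat peaks as independent, which neighbours are not, so they are likely too narrow.

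The peaks were shallow. The number of fragments at each summit, worked out from the deposited values, was 10 at the median in both lists, against 11 and 12 over the whole Spindlin1 and C11orf84 lists. The Spindlin1 range was 6 to 21 and the C11orf84 range 6 to 22. The authors' fold enrichment, the summit over its local background, had a median of 5.64 for Spindlin1 (whole list 5.72) and of 5.40 for C11orf84 (whole list 5.89). Folds are the authors' values, each relative to its own list, so a fold of one protein is not set against a fold of the other. Only 22 Spindlin1 peaks had a −log10 q of 10 or more, 2.71% against 11.8% of the whole list, and 47 C11orf84 peaks did, 4.28% against 15.7%. Most peaks stood on the lowest background that their list holds, called the floor here: 80.3% for Spindlin1 and 80.6% for C11orf84 in the region, against 48.2% and 49.3% of the whole lists. Peak widths had a median of 236 bp for Spindlin1 and 270.5 bp for C11orf84.

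A peak that overlapped the other list by 1 bp or more counted as shared. Over the whole lists this held for 69.7% of Spindlin1 and 57.6% of C11orf84 peaks. In the region the Spindlin1 share was close to that background, at 568 of 811 (70.0%, 66.8 to 73.2), and the C11orf84 share was below it, at 554 of 1098 (50.5%, 47.5 to 53.5). These shares are not matched for the number of fragments at the summit, and matched values, which read differently, are given below.

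**Figure D1:**
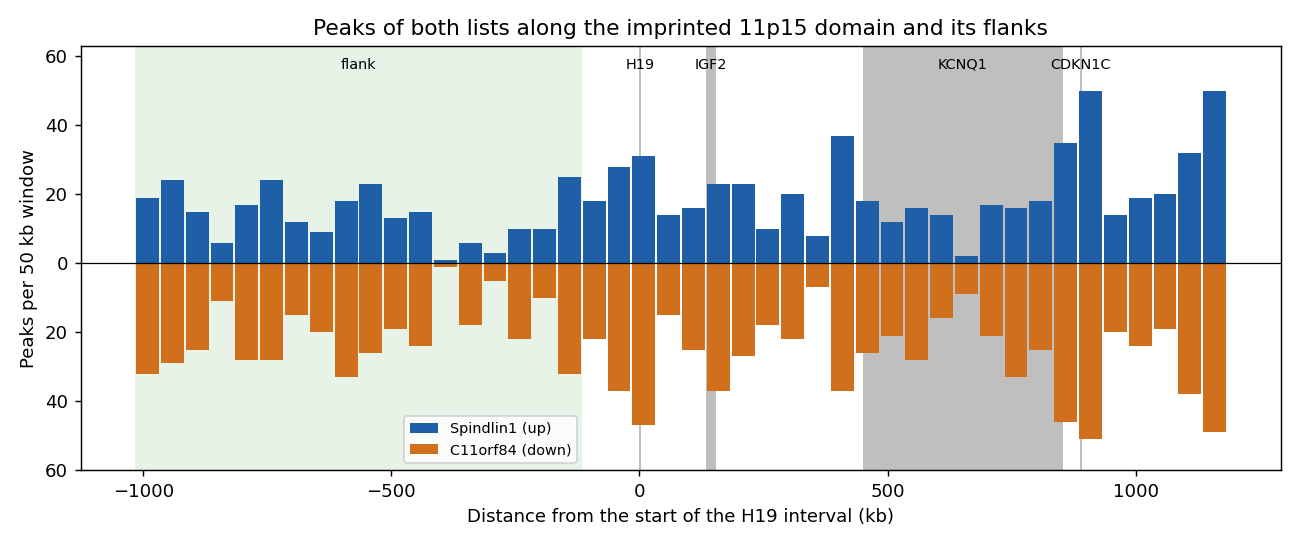
Peaks per 50 kb window along the region, Spindlin1 upwards and C11orf84 downwards, against the distance from the start of the H19 interval in kb. Green marks the flank and grey the 4 gene intervals. The tallest Spindlin1 bars, 50 peaks each, stand at CDKN1C and at the far end, and the window with 1 peak of each protein lies in the flank.

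Density varied widely along the region in both lists. In 50 kb windows the Spindlin1 number ran from 1 through a median of 17 to 50, and the C11orf84 number from 1 through a median of 24.5 to 51. The flank was the sparsest of the 4 large pieces, with 278 Spindlin1 peaks per Mb (244 to 314) and 420.0 C11orf84 peaks per Mb (379 to 465). The span had 366 (327 to 408) and 511 (465 to 560). The 116 kb from the flank to H19 had 500.0 (380 to 646) and 629 (493 to 791), and the piece past CDKN1C had 604 (518 to 699.9) and 655 (566 to 755). Relative to the span, the flank had 0.759 times the Spindlin1 density (0.641 to 0.898) and 0.822 times the C11orf84 density (0.716 to 0.945). Among peaks at the floor only, the C11orf84 ratio was 0.899 and its interval included 1 (0.772 to 1.04). Past CDKN1C the density was 1.65 times that of the span for Spindlin1 (1.37 to 1.99) and 1.28 times for C11orf84 (1.08 to 1.52).

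H19, the noncoding RNA gene, carried 3 peaks of each protein, and all but 1 of the 6 were shallow. Spindlin1 had 3 peaks in its 3 kb, at chr11:2017452-2017653 with a fold of 4.62 on 8 fragments, chr11:2018536-2018707 with 4.11 on 7 and chr11:2018770-2018941 with 5.13 on 9. These are in the lower part of the list, since 88.0%, 96.0% and 75.7% of all Spindlin1 peaks had a fold as high or higher. C11orf84 also had 3, of which chr11:2016043-2016305 and chr11:2016425-2016604 had a fold of 4.42 on 8 fragments each. The third, chr11:2016824-2017594, was the broadest at 771 bp and had a fold of 7.36 on 14 fragments. The only overlap in the gene was between that C11orf84 peak and the first Spindlin1 peak, and their summits were 341 bp apart. With 5 kb added on each side there were 8 Spindlin1 and 12 C11orf84 peaks, 5 of each shared. Among those outside the gene, the Spindlin1 peak chr11:2014704-2014875 (fold 5.64) and the C11orf84 peak chr11:2014641-2015185 (fold 7.36) had summits 5 bp apart.

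IGF2, the growth factor gene, had 9 Spindlin1 and 13 C11orf84 peaks in 21 kb, and 5 of each overlapped the other list. The best Spindlin1 peak, chr11:2155966-2156208, had a fold of 6.67 on 12 fragments and lay over the C11orf84 peak chr11:2156031-2156753, with a fold of 5.40 on 10. The closest match near the high-coordinate end of the gene was the Spindlin1 peak chr11:2166584-2167018 (fold 5.64) with the C11orf84 peak chr11:2166586-2166907 (fold 6.38 on 12 fragments), whose summits were 31 bp apart. In the middle of the gene the summits of chr11:2162392-2162585 (Spindlin1, fold 4.80) and chr11:2162329-2162601 (C11orf84, fold 5.19) were 10 bp apart. The weakest of the 13 C11orf84 peaks, chr11:2158681-2158893, had a fold of 2.96 and stood on a background 3.27 times the floor. No peak in H19 or IGF2 reached a −log10 q of 10 in either list. The stretch between the 2 genes had 46 Spindlin1 and 70 C11orf84 peaks in 131 kb.

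Between IGF2 and KCNQ1, the stretch of INS, TH, ASCL2 and CD81, there were 117 Spindlin1 and 140 C11orf84 peaks in 295 kb. It held a Spindlin1 fold tied for the second highest of the region, 9.75 on 18 fragments at chr11:2441697-2442084. The C11orf84 peak there, chr11:2441691-2442566, had a fold of 8.35 on 16 fragments, and the summits were 13 bp apart.

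KCNQ1, the channel gene, was the longest gene interval at 404 kb and had 121 Spindlin1 and 190 C11orf84 peaks. Its Spindlin1 density, 299.5 per Mb, was 0.755 times that of the stretch before it (0.581 to 0.982). The C11orf84 density, 470.3 per Mb, was 0.991 times that of the same stretch (0.792 to 1.24). The peaks were not spread evenly. The longest stretch of the whole region without a peak of either protein, 61.3 kb at chr11:2614069-2675343, lay inside KCNQ1 and took up 15.2% of it, and another of 33.2 kb lay at chr11:2495759-2528955. Before the longest stretch the gene had 371 Spindlin1 and 581 C11orf84 peaks per Mb, and after it 339 and 534. Without it the densities over the gene were 353 and 554 per Mb. The highest Spindlin1 fold of the gene, 8.72 on 16 fragments at chr11:2582789-2583150, had no C11orf84 peak over it, the nearest C11orf84 summit being 1642 bp away. The highest C11orf84 fold, 8.84 on 17 fragments at chr11:2552551-2552753, lay over a Spindlin1 peak of fold 6.67. Beyond the empty stretch the lists met at chr11:2686118-2686418 (Spindlin1, fold 7.70 on 14 fragments) and chr11:2686155-2686424 (C11orf84, fold 8.35 on 16), with summits 14 bp apart. Where KCNQ1OT1 starts was not placed in hg19 here, so its start was not read against these peaks.

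Past KCNQ1 both lists became denser. The 34 kb to CDKN1C held 25 Spindlin1 and 35 C11orf84 peaks, a density 2.46 times that of KCNQ1 for Spindlin1 (1.53 to 3.80) and 2.19 times for C11orf84 (1.48 to 3.15). Of the Spindlin1 peaks in it, 23 (92.0%, 74.0 to 99.0) overlapped C11orf84, against 66.9% (57.8 to 75.2) within KCNQ1. Of the C11orf84 peaks, 24 (68.6%, 50.7 to 83.1) overlapped Spindlin1, against 45.3% (38.0 to 52.6). In both lists the intervals overlap slightly. These shares were not matched for depth or for the bases covered, and both differed. C11orf84 peaks covered 40.7% of the 34 kb and 14.3% of KCNQ1, and Spindlin1 peaks 26.1% and 8.21%. The median summit of the 34 kb had 11 fragments for Spindlin1 and 12 for C11orf84, against 10 for each in KCNQ1. From the summits of the shared Spindlin1 peaks the nearest C11orf84 summit was 40 bp away at the median. The Spindlin1 peak chr11:2873906-2875029, 1124 bp wide, was the second widest of its list in the region. The highest fold of any C11orf84 peak of the region without a Spindlin1 overlap, 8.92 on 18 fragments, was at chr11:2889508-2889748.

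CDKN1C, the cell cycle inhibitor gene, was peaked from end to end, and every peak in it was shared. Its 3 kb held 5 Spindlin1 peaks, with folds of 5.13, 8.72, 5.76, 7.18 and 4.62 in order of position, and 4 C11orf84 peaks, with folds of 6.38, 6.87, 7.36 and 6.38. All 5 and all 4 overlapped the other list, which with so few peaks allows a share as low as 47.8% and 39.8%. Peaks covered 40.7% of the interval for Spindlin1 and 72.8% for C11orf84. The leading Spindlin1 peak, chr11:2904960-2905233, had 16 fragments and a −log10 q of 11.7, and 5.00% of the whole list had a fold as high or higher. The C11orf84 peak over it, chr11:2904964-2905968, was 1005 bp wide, lay over 2 Spindlin1 peaks and had its summit 1 bp from that of the leading one. A second pair, chr11:2906288-2906571 for Spindlin1 (13 fragments) and chr11:2906308-2906692 for C11orf84 (14 fragments), had summits 61 bp apart. Of the 9 peaks, 8 stood on the floor, and the other (Spindlin1 chr11:2905413-2905706) on 1.14 times the floor. H19, an interval of the same length, had 1 of 3 peaks shared in each list (33.3%, 0.840 to 90.6), and with so few peaks its interval and that of CDKN1C overlap.

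**Figure D2:**
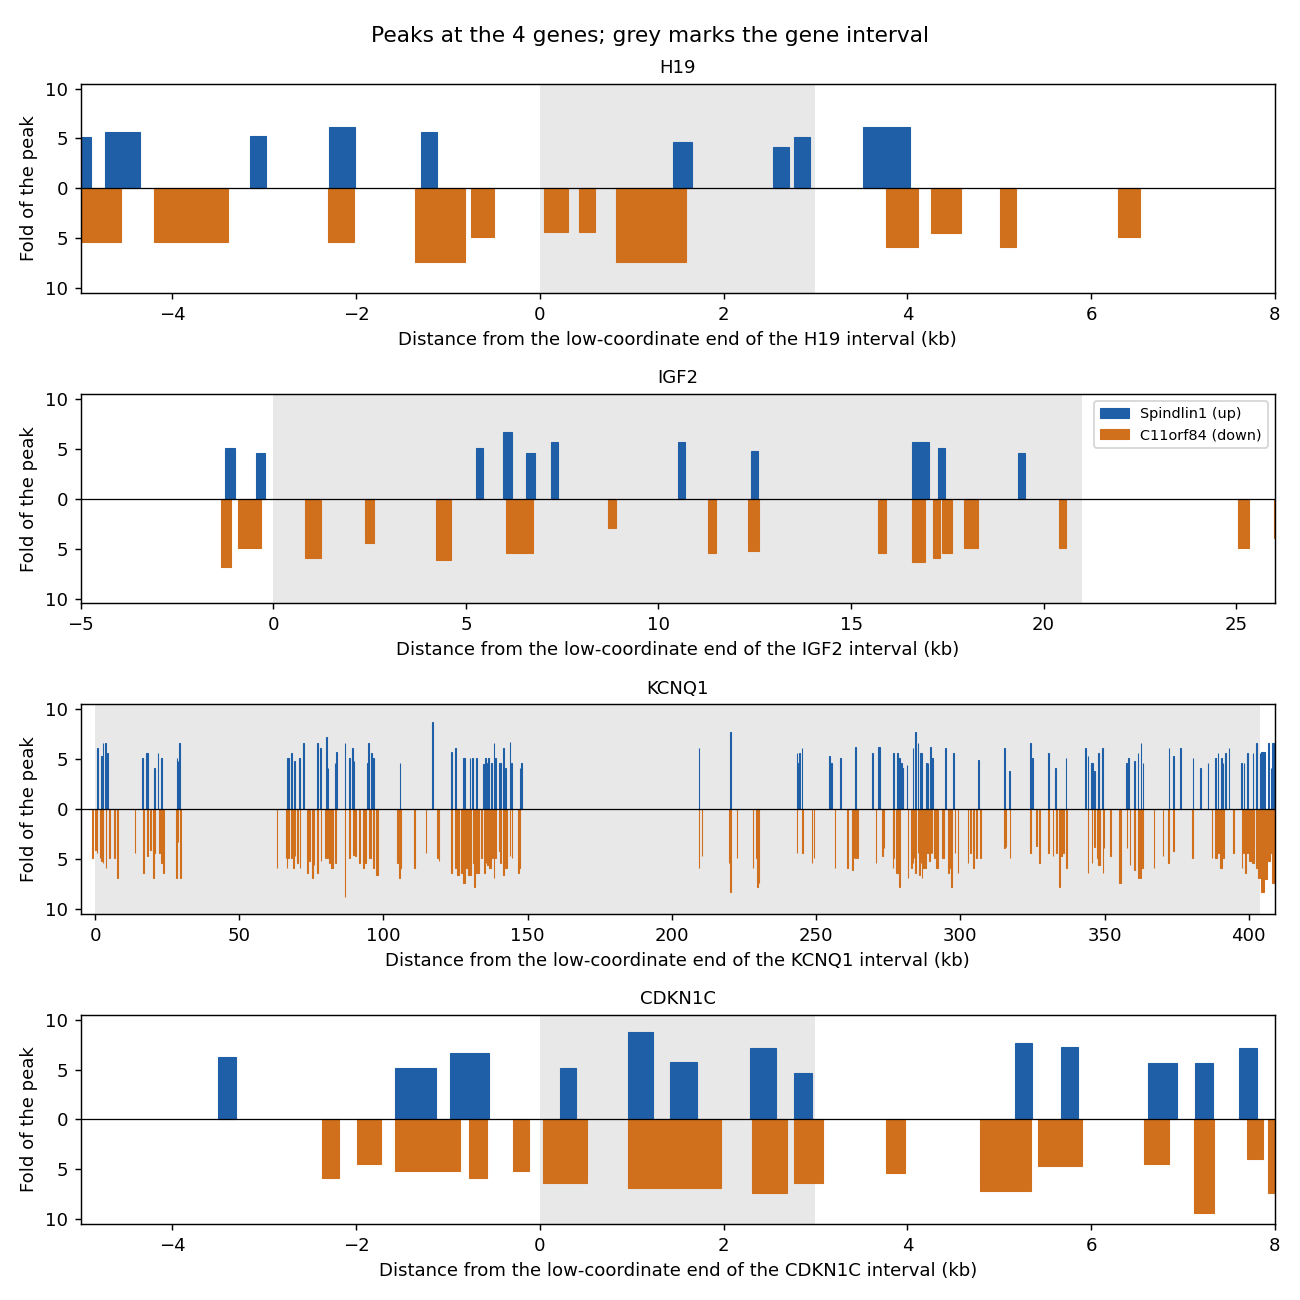
Peaks at H19, IGF2, KCNQ1 and CDKN1C, drawn at their width against the distance in kb from the low-coordinate end of each gene interval (grey). The bar height is the authors' fold, Spindlin1 upwards and C11orf84 downwards. CDKN1C has bars of both proteins at the same places, H19 has 1 pair that meets, and KCNQ1 shows an empty stretch of 61.3 kb.

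The 293 kb past CDKN1C, towards PHLDA2, NAP1L4 and OSBPL5, held most of the peaks of highest fold. Of the 8 highest folds of the region, 5 of the Spindlin1 list and 7 of the C11orf84 list lay there. C11orf84 reached a fold of 10.8 on 21 fragments at chr11:2913241-2914111, over a Spindlin1 peak of fold 8.64, and 10.4 on 22 fragments at chr11:3181409-3182337, over a pair of Spindlin1 peaks, the nearer of fold 7.56. Close to CDKN1C it had a fold of 9.33 at chr11:2911118-2911342, with the Spindlin1 summit 6 bp away. For Spindlin1 the leading peak of the piece, chr11:2918790-2919009 with a fold of 9.75 on 18 fragments, had no C11orf84 peak over it. The next, chr11:3165442-3165850, had the same fold and depth and was shared. The widest peak of each list was here as well, at chr11:3027813-3029033 for Spindlin1 (1221 bp) and chr11:2961401-2963194 for C11orf84 (1794 bp).

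In the flank the lists had a strong peak at the same place, the highest Spindlin1 fold of the region and a C11orf84 fold tied for the highest. Spindlin1 had a fold of 11.3 on 21 fragments at chr11:1213326-1213599, which ranked 509 in its whole list. C11orf84 had a fold of 10.8 on 21 fragments at chr11:1213325-1213610, at rank 1138, with the summits 4 bp apart. Both peaks directly bordered a stretch of 50.9 kb without a peak of either protein, chr11:1162397-1213324. The other long empty stretch of the flank was chr11:1596116-1647130, of 51.0 kb. The flank as a whole was shallow, with 9 fragments at the median Spindlin1 summit and 10 at the median C11orf84 summit, and only 2 Spindlin1 peaks and 1 C11orf84 peak, the strong pair included, reached a −log10 q of 10.

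The lists overlapped unequally along the region, for which 69.7% and 57.6% of the whole lists are the background. In the flank 154 of 250 Spindlin1 peaks (61.6%, 55.3 to 67.7) and 156 of 378 C11orf84 peaks (41.3%, 36.3 to 46.4) were shared, both below the whole lists. In the span 222 of 326 Spindlin1 peaks were (68.1%, 62.7 to 73.1), near the whole list, and 224 of 455 C11orf84 peaks (49.2%, 44.5 to 53.9), below it. Past CDKN1C the shares were above the whole lists, at 152 of 177 (85.9%, 79.9 to 90.6) and 137 of 192 (71.4%, 64.4 to 77.6). In bases, the lists had 54.5% of the Spindlin1 and 34.4% of the C11orf84 territory of the region in common, with 41.5% and 25.4% in the flank and 74.0% and 53.6% past CDKN1C.

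Stricter overlap lowered the shares and changed their order for the 116 kb between the flank and H19, where 69.0% of Spindlin1 and 50.7% of C11orf84 peaks were shared by 1 bp or more. With at least 50% of both intervals in common, 35.3% of Spindlin1 peaks of the region (32.0 to 38.7) were shared, which is below the 47.5% of the whole list, and 26.0% of C11orf84 peaks against 41.1%. Past CDKN1C these shares were 46.9% (39.4 to 54.5) and 43.2% (36.1 to 50.6), so by this measure that piece did not stand above the whole lists. In the flank they were 30.4% and 20.1%, and in the 116 kb before H19, on 58 and 73 peaks, 24.1% (13.9 to 37.2) and 19.2% (10.9 to 30.1). With summits no more than 200 bp apart, the C11orf84 share past CDKN1C was again above the whole list, at 56.8% (49.4 to 63.9) against 47.5%. The Spindlin1 share was 61.0% (53.4 to 68.2) against 55.1%, within its counting interval. Shared Spindlin1 peaks of the region had a median of 97.5 bp between the summits of the lists, against 58 bp over the whole list, and past CDKN1C it was 103.5 bp. There, 24 of the 192 C11orf84 peaks (12.5%) lay over more than 1 Spindlin1 peak, against 5.56% of the whole list and 2.12% in the flank.

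**Figure D3:**
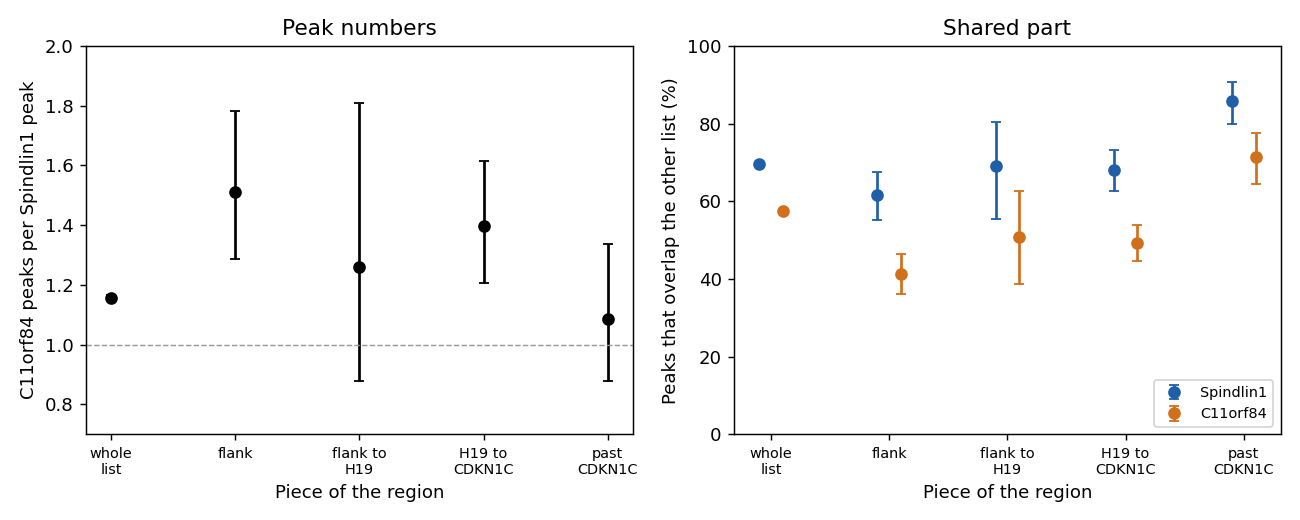
C11orf84 peaks per Spindlin1 peak (left) and the percentage of peaks of each list that overlap the other (right), for the whole lists and the 4 large pieces of the region. Points are observed values and bars 95% counting intervals. The ratio is 1.51 in the flank and 1.08 past CDKN1C, and both shares are highest past CDKN1C.

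Shares also depend on depth, so peaks at the floor were compared with those of the whole list at the same number of fragments. Over the region, 69.0% of Spindlin1 peaks at the floor were shared (65.3 to 72.5), above the 63.4% that the depths of the whole list gave. For C11orf84 the share was 48.1% (44.8 to 51.5) against 47.6%, within counting error. Both pooled values mix opposite differences by depth. At 9 to 10 fragments the region was above the whole list, at 71.1% (65.02 to 76.6) against 61.1% for Spindlin1. For C11orf84 it was 48.2% (42.8 to 53.7) against 42.7%. At 13 or more it was below, at 73.8% (61.5 to 83.97) against 84.2% and 59.8% (50.8 to 68.4) against 73.1%. Spindlin1 was also above at 7 to 8 fragments, and the other depth groups lay within counting error. In the flank, Spindlin1 peaks at the floor were shared in 62.4% (55.6 to 68.8), where the depths of the whole list gave 61.2%, and C11orf84 peaks in 39.5% (34.2 to 45.0), where they gave 44.6%. In the span the Spindlin1 share was 67.3% (61.4 to 72.8) against 62.9%, and the C11orf84 share 48.9% (43.7 to 54.1) against 47.5%. Past CDKN1C the values were 84.2% (76.2 to 90.4) against 68.9% for Spindlin1 and 68.6% (59.5 to 76.9) against 56.4% for C11orf84. Over all depths the shares past CDKN1C were thus above the matched values, whereas in the span both lay within counting error of them. The difference was widest among the shallowest Spindlin1 peaks past CDKN1C, of 7 to 8 fragments, where 13 of 13 were shared (75.3 to 100) against 54.0% of such peaks in the whole list. At 13 or more fragments no such excess was seen past CDKN1C, with 23 of 29 Spindlin1 peaks shared (79.3%, 60.3 to 92.0) against 84.2% of the whole list, and 34 of 47 C11orf84 peaks (72.3%, 57.4 to 84.4) against 73.1%. A share below the whole list was seen for C11orf84 in the flank at 11 to 12 fragments, with 35 of 93 shared (37.6%, 27.8 to 48.3) against 52.8%. The same held at 13 or more, with 9 of 20 shared (45.0%, 23.1 to 68.5) against 73.1%. At 7 to 8 and at 9 to 10 fragments the whole-list share lay within the flank interval. Crowding moved with these shares in the flank, the span and the piece past CDKN1C: C11orf84 peaks covered 27.5% of the bases past CDKN1C, 17.0% of the span and 12.5% of the flank. The 116 kb from the flank to H19 did not keep to this. C11orf84 peaks covered 24.98% of these bases. The floor shares there were nearer those of the span, at 72.3% (57.4 to 84.4) for Spindlin1 and 50.8% (38.1 to 63.4) for C11orf84. The Spindlin1 interval also includes the share past CDKN1C. The part of crowding in the shares was not tested.

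**Figure D4:**
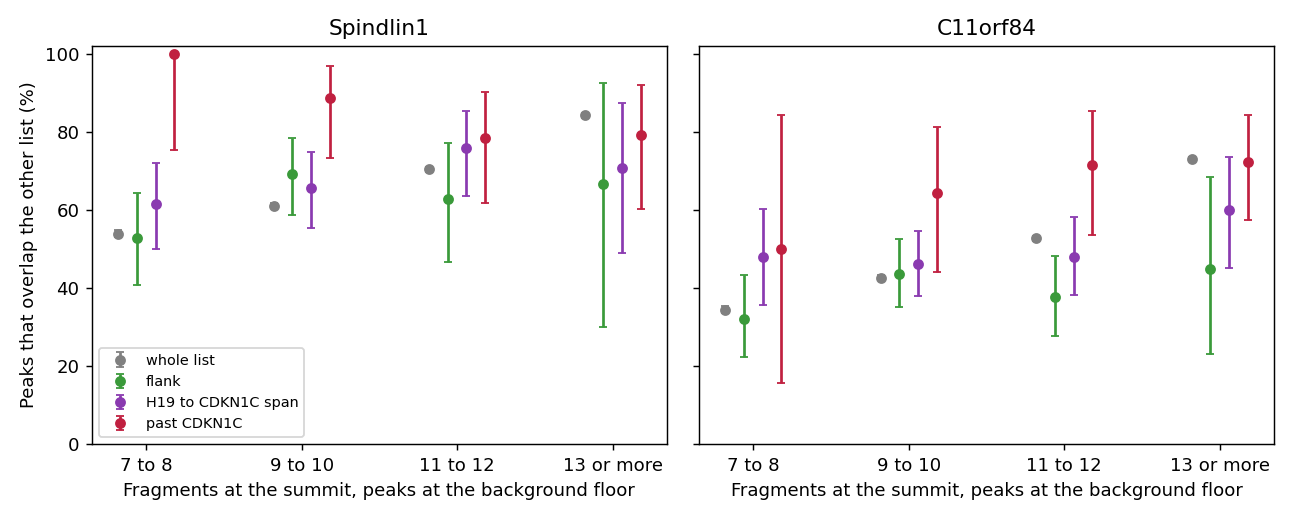
Percentage of floor peaks that overlap the other list, by fragments at the summit, for Spindlin1 (left) and C11orf84 (right). Points are the whole list (grey), flank, span and piece past CDKN1C, with 95% counting intervals. Shares of the whole lists rise with depth, and the Spindlin1 peaks past CDKN1C start at 100% for 7 to 8 fragments.

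C11orf84 peaks outnumbered Spindlin1 peaks by more than the whole lists do. There were 1.35 C11orf84 peaks per Spindlin1 peak in the region (1.24 to 1.48), against 1.16 over the whole lists (1.15 to 1.17) and 1.17 on the rest of chromosome 11 (1.14 to 1.21). The ratio was 1.51 in the flank (1.29 to 1.78), 1.40 in the span (1.21 to 1.61) and 1.57 in KCNQ1 (1.24 to 1.99). It was 1.08 past CDKN1C (0.880 to 1.34), an interval that includes the whole-list value. C11orf84 had the higher number in 38 of 44 windows of 50 kb, the numbers were equal in 3, and Spindlin1 was higher in 3. Among peaks of 12 or more fragments the ratio of the region was 1.57 (1.31 to 1.88), against 1.31 over the whole lists. Among those of −log10 q 10 or more it was 2.14 (1.26 to 3.72), an interval that includes the 1.54 of the whole lists. At that q the order of the pieces did not hold: past CDKN1C there were 27 C11orf84 and 10 Spindlin1 peaks, a ratio of 2.70 (1.27 to 6.25), and in the flank 1 and 2. Total read numbers are unknown. If the floor is proportional to library depth and the shortest peak to fragment length, which was not tested, the floors put the C11orf84 depth at 1.04 times that of Spindlin1.

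Some other dense windows of the genome had an excess of C11orf84 of like size, but most had a smaller one. Among 180 windows of 1 Mb with at least 200 Spindlin1 peaks, the C11orf84 peaks per Spindlin1 peak had a median of 1.12 (range 0.889 to 1.54). The 1 to 2 Mb window of chromosome 11 had 1.48 and ranked 3 from the top, and the 2 to 3 Mb window had 1.35 and ranked 18. The same 2 windows had low C11orf84 shares, 42.6% and 52.4%, against a median of 65.8%. They also had many peaks at the floor. In the 1 to 2 Mb window 86.1% of Spindlin1 and 88.6% of C11orf84 peaks stood at it, the highest percentage of all 180 windows in each list, and in the 2 to 3 Mb window 80.5% and 78.3%. Across the 180 windows the ratio and the C11orf84 floor percentage had a Spearman correlation of 0.60, and the C11orf84 share and that percentage one of −0.58. The windows share both libraries, so these are descriptions. In the 22 windows where at least 75% of C11orf84 peaks stood at the floor, the ratio ran from 1.19 to 1.54 with a median of 1.38, and the share from 36.6% to 52.4% with a median of 42.7%. Both windows of chromosome 11 were among these 22, and the 2 to 3 Mb window had the highest share of them. Within the region the floor percentage fell from the flank to the span to the piece past CDKN1C, while the shares rose. It was 87.2% and 88.4% in the flank, 83.4% and 80.9% in the span, and 64.4% and 61.5% past CDKN1C. The 116 kb from the flank to H19 kept to this pattern for Spindlin1, with 81.0% at the floor and 69.0% shared. For C11orf84 they did not: 89.0% stood at the floor, the most of the 4 large pieces, and 50.7% were shared. The part of the background in the ratio and in the shares was not tested.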

How the data were processed

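ChIP-seq peak lists of Spindlin1 and C11orf84 in U2OS cells were analysed, each made by the authors from 1 library. The submitters' processing notes name Bowtie 1.2.2 and hg19. Which program called the peaks, with what threshold and control, is not given in the sources used here. The deposited lists give a score (not used), a fold (a ratio of summit to local background), the −log10 of a p-value and of a q-value per peak, all made by the authors, and the summit position.

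Summit depth k and background λ were recovered from the deposited fold, taken as (k + 1)/(λ + 1), and −log10 p, taken as a Poisson tail. A whole k met both values of every peak, with largest errors of 0.000174 for Spindlin1 and 0.000148 for C11orf84 in −log10 p. The floors were 0.949 and 1.04 fragments (tolerance 0.1%). Total read numbers are unknown. No intervals overlapped within a list, and positions are printed counting from 1. Shares and ratios of numbers carry exact binomial intervals and densities exact Poisson intervals, at 95%. The whole-list share at matched depth is that of its floor peaks, weighted by the depths of the piece.

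Named were peaks in or within 5 kb of H19, IGF2 and CDKN1C (of more than 6, those of highest fold), the 5 of highest fold in KCNQ1, and in the region the 8 of highest fold, the 3 widest and the 4 of highest fold without overlap, with the longest peak-free stretches. The other peaks of the 3 gene intervals were chosen after their values were seen. Members, pieces and comparisons were chosen with earlier results of these data known. Peaks at the floor, other depth and q thresholds, the numbers of C11orf84 per Spindlin1 peak, the piece past CDKN1C and the dense windows were added after the data were seen. Gene names and order came from a RefSeq table of another build. The work used pandas 2.3.3, SciPy 1.17.1 and NumPy 2.4.6 under Python 3.11.15, with matplotlib 3.10.9 for plots. Recovery and overlap steps were tested on simulated data.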

Additional observations from a re-analysis of the deposited data

How the results depend on the processing

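Shares fell under stricter overlap. Given in the order region, flank, span and past CDKN1C, those of Spindlin1 were 35.3%, 30.4%, 34.7% and 46.9% with at least 50% of both intervals in common, and 52.3%, 47.2%, 53.4% and 61.0% with summits no more than 200 bp apart. Those of C11orf84 were 26.0%, 20.1%, 24.8% and 43.2%, and 38.5%, 31.2%, 37.8% and 56.8%. The first rule can only lower a share, since it asks for more of the same overlap. Among peaks of −log10 q 10 or more in each list they were 31.8%, 50%, 11.1% and 50% for Spindlin1 and 14.9%, 100%, 6.25% and 18.5% for C11orf84, over few peaks (22 and 47 in the region). Both lists were cut there, so a peak counted as shared only with a partner that also reached that q. With the other list left uncut, 17 of the 22 Spindlin1 and 34 of the 47 C11orf84 peaks of the region overlapped it. At that threshold the region had 10 and 21.4 peaks per Mb, and the flank had 0.220 and 0.0619 times the density of the span. The number of C11orf84 peaks per Spindlin1 peak was then 2.14, 0.500, 1.78 and 2.70. From a −log10 q of 5 upwards it was 1.49 in the region and 1.69 in the span, and with at least 12 fragments 1.57 and 1.90. The whole lists also rose, from 1.16 to 1.23 at that q and 1.31 at that depth. The cause of these moves was not tested.

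Membership by any base, the flank extended to H19, covered bases in place of peak numbers and peaks at the floor left each value they were run on within its counting interval. With at least 100 Spindlin1 peaks per window the windows of chromosome 11 ranked 16 and 64 of 473 by C11orf84 per Spindlin1 peak. With at least 300 only the 2 to 3 Mb window qualified, at rank 7 of 96. No paired analysis was possible because each antibody has 1 library. At a median of 10 fragments, a missing peak says only that none was called, not that the protein was absent.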

Other observations

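The first 1 Mb of the chromosome, which lies outside the region, resembled the flank. It had 1.46 C11orf84 peaks per Spindlin1 peak (1.24 to 1.72), and 42.4% of its 368 C11orf84 peaks and 65.5% of its 252 Spindlin1 peaks were shared. The floor percentage was 76.6% for Spindlin1 and 77.7% for C11orf84. In the 1 Mb past the region the ratio was 1.10 (0.801 to 1.52), and 63.5% of 85 C11orf84 peaks and 71.4% of 77 Spindlin1 peaks were shared.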
